A study of Mus musculus with 4 samples.

Results

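Distal stretches of the mouse genome that carried an H3K27ac peak in the Col2a1-EGFP positive (EGFP+) cells of both limbs and trunk, and in the EGFP negative (EGFP-) cells of neither tissue, were described from 4 peak lists. The 4 lists were merged into 62558 union regions on chromosomes 1 to 19, X and Y, of which 42651 lay outside the promoter windows of protein-coding genes, which reached from 2000 bp upstream to 500 bp downstream of each start site. Of these distal regions, 4623 (10.8%) were overlapped by a limb EGFP+ and a trunk EGFP+ interval and by no EGFP- interval of either tissue, and they are called the members here. The peak calls of all 4 libraries chose the members, so the presence of the EGFP+ peaks and the absence of the EGFP- peaks are a description and not a finding.

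The study sorted cells of mouse fetuses of stage E14.5 by their green fluorescence and profiled H3K27ac by ChIP-seq in 1 library for each of 4 populations. These were EGFP+ and EGFP- cells of the embryonic limb bud and EGFP+ and EGFP- cells of the embryonic trunk, and all 4 had the genotype Col2a1-EGFP on the G4 background. The fetuses were all derived from male G4 embryonic stem cells by tetraploid complementation, so a single genetic background was sampled, and each library came from a small pool of sorted limbs or trunks. EGFP is driven by a sensor inserted at Col2a1 in a single edited stem cell line. EGFP+ therefore means a cell in which that locus is active, and the EGFP- cells are a mixture of cell types of the tissue. The 4 lists held between 30716 and 40899 intervals, with a median of 24 to 26 reads at a summit, after the authors had drawn the same number of reads from each library. With 1 library per population no test between populations was possible, and the exact 95% intervals (Clopper-Pearson) given below cover counting error only. In such bulk libraries fewer marked cells and less mark per cell cannot be told apart.

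H3K27ac is acetylation of lysine 27 of histone H3 and marks nucleosomes beside active promoters and enhancers. Enhancers are stretches of DNA to which transcription factors bind and which raise the transcription of genes that can lie far away on the same chromosome. Cartilage forms when mesenchymal cells switch on the transcription factor SOX9, which together with SOX5 and SOX6 activates the genes of the cartilage matrix, among them Col2a1 and Acan. SOX proteins bind a short DNA core, and the chondrogenic SOX factors are known to bind sites in which 2 such cores face each other on opposite strands.

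The promoters of marker genes were checked against the sort. The 7 chondrocyte markers examined were Col2a1, Col9a1, Col11a2, Acan, Matn1, Matn4 and Sox9. All 7 had a promoter peak in the limb and in the trunk EGFP+ list. In the limb EGFP- list 3 of 7 had one. These were Sox9, with a −log10 p of 14.7, Col2a1, the locus of the sort, with 5.67, and Matn4, with 3.72. In the trunk EGFP- list 1 of 7, Sox9, had one. At the Sox9 promoter the trunk EGFP- peak, with a −log10 p of 20.6, was stronger than the trunk EGFP+ peak, with 16.2. Of 15 markers of muscle, endothelium, neurons and glia, epithelium and connective tissue, 0 had a promoter peak in the trunk EGFP+ list and 4 had one in the limb EGFP+ list, against 2 in the limb EGFP- list and 2 in the trunk EGFP- list. The 4 in the limb EGFP+ list were Myog, Sox10, Kera and Osr1, with −log10 p between 5.64 and 7.89. The part of cells of these types in the limb EGFP+ values was not tested.

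The DNA of the members is shown first for 4 well-known cartilage loci. Each sequence is the 300 bp window around the strongest summit of the strongest member within 100 kb of a start site of the gene, read from GRCm39 on the plus strand. Capitals mark a SOX site spelled ACAAAG or ACAATG on either strand.
Col2a1 locus, chr15:97946513-97946812, in an intron of Senp1: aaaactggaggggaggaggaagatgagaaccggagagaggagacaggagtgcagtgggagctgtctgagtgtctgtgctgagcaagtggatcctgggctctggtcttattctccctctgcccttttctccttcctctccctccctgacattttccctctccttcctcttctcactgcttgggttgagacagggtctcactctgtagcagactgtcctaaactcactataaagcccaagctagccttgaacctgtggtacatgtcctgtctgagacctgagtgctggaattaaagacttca
Acan locus, chr7:78621978-78622277, intergenic: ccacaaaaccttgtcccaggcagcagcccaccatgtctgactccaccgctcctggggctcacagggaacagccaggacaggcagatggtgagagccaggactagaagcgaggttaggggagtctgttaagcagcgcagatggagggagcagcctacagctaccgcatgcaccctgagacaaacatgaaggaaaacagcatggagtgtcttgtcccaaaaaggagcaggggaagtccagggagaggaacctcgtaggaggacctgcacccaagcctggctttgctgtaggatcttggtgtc
Sox9 locus, chr11:112589176-112589475, intergenic: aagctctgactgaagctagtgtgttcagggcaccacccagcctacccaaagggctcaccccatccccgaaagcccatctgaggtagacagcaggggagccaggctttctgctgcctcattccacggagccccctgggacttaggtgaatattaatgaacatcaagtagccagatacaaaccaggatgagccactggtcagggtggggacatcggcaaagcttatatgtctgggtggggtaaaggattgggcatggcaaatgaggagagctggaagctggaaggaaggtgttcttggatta
Fgfr3 locus, chr5:33874432-33874731, intergenic: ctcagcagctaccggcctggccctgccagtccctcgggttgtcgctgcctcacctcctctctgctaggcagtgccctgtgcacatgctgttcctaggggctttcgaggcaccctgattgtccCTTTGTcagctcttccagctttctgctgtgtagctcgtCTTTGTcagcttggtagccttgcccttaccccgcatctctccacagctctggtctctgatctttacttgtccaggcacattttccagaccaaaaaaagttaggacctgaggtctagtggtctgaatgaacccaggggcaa
Only the Fgfr3 window held a marked site, and it held 2. The spelling ACAAAG was found in 24.7% of the 300 bp windows of the members, beside 25.5% of those of all distal regions and 29% of those with peaks in both EGFP- lists alone. For ACAATG the members' share was 11.9% and that of all distal regions 13.3%, so neither spelling was more frequent in the members.

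Pairs of facing SOX cores did differ in frequency, at one spacing and in windows of 1000 bp. The 8 sequences that follow come from the 8 strongest members whose 1000 bp window around the strongest summit held a core ACAAA or ACAAT, then exactly 6 bases, then the facing core ATTGT or TTTGT. This spacing was chosen after these data had been examined. Each sequence shows the pair with 30 bases on each side on the plus strand of GRCm39, and capitals mark the cores.
Intron of Aif1l, chr2:31852624-31852699: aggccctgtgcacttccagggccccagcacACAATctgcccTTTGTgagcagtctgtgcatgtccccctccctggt
Upstream of Acan, chr7:78621557-78621632: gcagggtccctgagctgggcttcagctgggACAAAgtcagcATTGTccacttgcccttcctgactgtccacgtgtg
Beside H1f9 and Col1a1, chr11:94846114-94846189: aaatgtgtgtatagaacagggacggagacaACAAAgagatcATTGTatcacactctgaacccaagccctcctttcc
Intron of Lrp5, chr19:3719303-3719378: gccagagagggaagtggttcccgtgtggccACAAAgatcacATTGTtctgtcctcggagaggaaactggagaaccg
Intron of Zc3h12d, chr10:7737555-7737630: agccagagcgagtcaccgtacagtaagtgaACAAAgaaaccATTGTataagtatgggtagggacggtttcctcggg
Intron of Gramd1b, chr9:40319512-40319587: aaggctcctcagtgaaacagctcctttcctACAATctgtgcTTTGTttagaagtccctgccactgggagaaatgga
Inside Col11a1, chr3:113893592-113893667: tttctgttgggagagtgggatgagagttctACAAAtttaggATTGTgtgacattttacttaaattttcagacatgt
Near Cd5, chr19:10692159-10692234: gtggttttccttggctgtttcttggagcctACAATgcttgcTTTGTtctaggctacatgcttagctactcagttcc
In each of these 8 sequences 1 core is spelled ACAAA and the other, read on its own strand, ACAAT. The pair lay inside the member itself in 5 of the 8, and outside its edge at H1f9, Lrp5 and Cd5.

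Most members ranked below the middle of their lists, and 58.1% were in the lower part of both when each list was divided at its median. The strength of a peak is given as the −log10 p of its strongest summit, by the authors' peak caller against the local background of the same library. In the limb EGFP+ list the members' −log10 p ran from 3.304 to 42.4 with a median of 8.26, and in the trunk EGFP+ list from 3.36 to 28.9 with a median of 7.03. The number of reads stacked on a summit follows from the fold and the p-value, and the medians were 21 reads over a local background of 4.22 in the limb and 19 reads over 4.44 in the trunk. The median member stood higher than 39.6% of all limb EGFP+ intervals and higher than 33.8% of all trunk EGFP+ intervals, promoters included. Only 11 members were in the top 25% of both lists.

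Regions that carried EGFP- peaks as well had stronger EGFP+ peaks. Distal regions with peaks in all 4 lists numbered 3785, and their median −log10 p was 15.2 in the limb and 11.97 in the trunk EGFP+ list. In the 1832 regions with both EGFP+ peaks and 1 EGFP- peak the medians were 9.505 and 7.96. The members had the lowest medians of the 3 groups, and no replicate bears on the difference. The smallest distal EGFP- peaks had 7 reads at the summit in the limb and 8 in the trunk list, and a weaker EGFP- signal over a member would not have been called. The reads needed for a call rise with the local background, so larger numbers of EGFP- reads could also stay uncalled. For example, a trunk EGFP+ summit in an intron of Prdm16 with 24 reads over a background of 11.6 had a −log10 p of only 3.36.

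**Figure D1:**
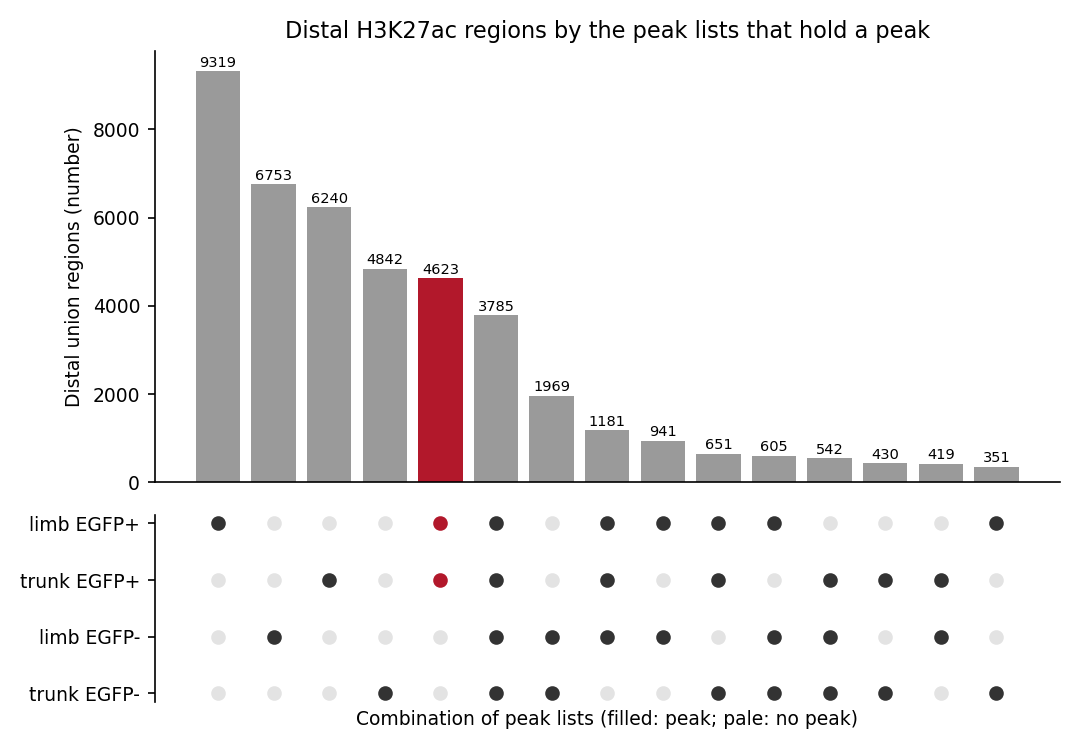
Number of distal union regions (vertical axis) for each combination of the 4 peak lists, with the lists that hold a peak shown as filled dots under each bar. The members, with both EGFP+ peaks and no EGFP- peak, are the red bar of 4623 regions, next after the 4 combinations with a peak in 1 list alone.

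As the counts by combination show, 10240 distal regions had peaks in both EGFP+ lists, and 45.1% of them (95% interval 44.2 to 46.1) had no EGFP- peak. The mirror group, with peaks in both EGFP- lists and in no EGFP+ list, numbered 1969, which is 4.62% of all distal regions and 28.5% of the 6901 distal regions with both EGFP- peaks (27.5 to 29.6). A further 15559 distal regions had a peak in 1 EGFP+ list alone, and these were narrow, with a median width of 254 bp against 526 bp for the members.

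Among the members, limb and trunk strength went together only loosely. Across the 4623 members the Spearman correlation of the limb and trunk −log10 p was 0.33, as a description over regions that share their 2 libraries. The rule asked for a call in both lists and left out regions with EGFP- peaks, whose EGFP+ peaks were stronger. It thereby limited the range of both values, and the correlation holds for the members only. The limb value was the higher one in 64.7% of the members (63.3 to 66.1), and the limb summit held more reads in 57.3% and the same number in 6.29%. The limb and trunk libraries came from different sequencing lanes by the names of their peaks, so the tissue and the lane cannot be told apart. The strongest limb and trunk summits of a member were close, 88 bp apart at the median, and within 200 bp in 77.3% of the members.

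**Figure D2:**
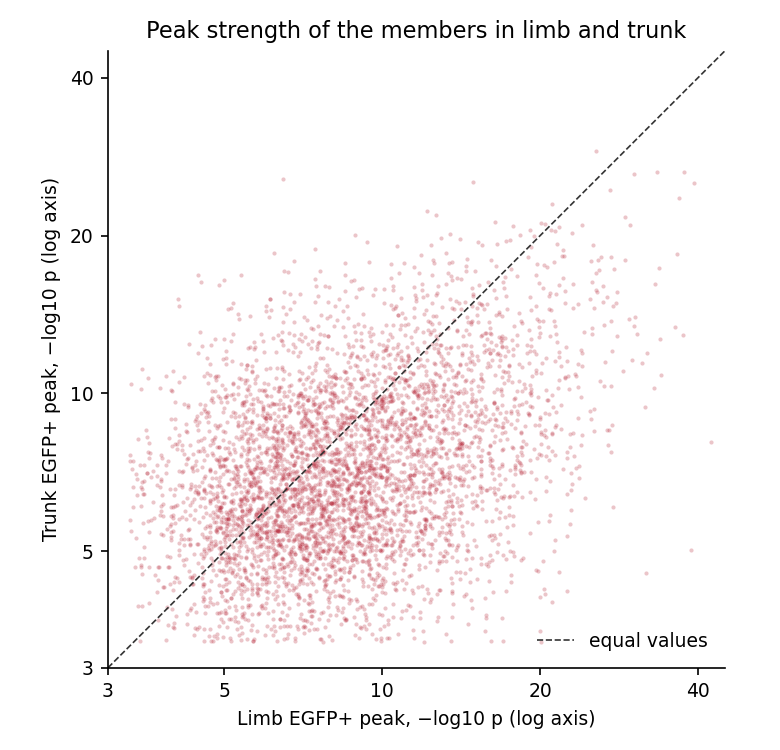
Each point is 1 of the 4623 members, placed by the −log10 p of its limb EGFP+ peak (horizontal, log axis) and of its trunk EGFP+ peak (vertical, log axis), with a dashed line at equal values. The points spread widely around the line, and 64.7% lie on its limb side.

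The 10 members with the highest lower value of the 2 lists were mostly intergenic or intronic. The first was an intron of Plekhm2, chr4:141376016-141377222, where the limb peak had a −log10 p of 37.6 and 68 reads and the trunk peak 26.5 and 53 reads. Next came a region 10.9 kb upstream of Arhgef16, chr4:154397003-154398510, at 33.4 in the limb and 26.4 in the trunk. The next, chr6:84108119-84108666, in an intron of Dysf, stood at 30.2 and 26.1. The genes nearest to these regions are named for position only, since no measurement here ties a region to the gene it acts on.

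The fourth region was in an intron of Kif21a, chr15:90912212-90913562, and was stronger in the trunk, at 28.9, than in the limb, at 25.6. The region upstream of Clic4, chr4:135024947-135026554, had 85 limb reads and 62 trunk reads at its summits. An intron of Aif1l, chr2:31851831-31853716, held 5 limb and 4 trunk summits and carries the first of the core pairs printed above. The member 30.1 kb upstream of Fmod, chr1:133932827-133934864, was 2038 bp wide and reached 36.8 in the limb list and 23.5 in the trunk list. Fmod encodes fibromodulin, a small leucine-rich proteoglycan that binds collagen fibrils.

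Acan provided the eighth, chr7:78621928-78623050, which is the region printed above and is nearest to the start of Isg20. Its values were 29.1 with 70 reads (exact Poisson interval 54.6 to 88.4) in the limb and 21.7 with 61 reads (46.7 to 78.4) in the trunk. The ninth, beside the start of Cdan1 at chr2:120560586-120561315, had an EGFP- interval only 205 bp away, whereas the nearest EGFP- interval was 16.8 kb from the tenth, 35.5 kb upstream of Fam180a at chr6:35338552-35339569.

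Some members leaned to 1 tissue although both carried a call. The widest gap in rank towards the limb was at chr2:75038873-75040484, in the gene desert beside Mtx2, the neighbour of the HoxD cluster, 383 kb from its start, where the −log10 p was 38.8 with 70 reads in the limb and 5.03 with 15 reads in the trunk. Others leaning to the limb lay in an exon of Actn4 (31.8 against 4.54), in an intron of Prdm16 (20.1 against 3.36), in an intron of Rcan1 (20.005 against 3.53) and in an intron of Kif26b (22.5 against 4.21). Towards the trunk the widest gap was 48.6 kb upstream of Ttc34, at chr4:154872808-154873276, with 16.9 in the trunk and 4.45 in the limb. It was followed by members in introns of Pdzd2, with 15.2 in the trunk and 4.09 in the limb, and of Adcy2, with 16.3 and 4.52. Next were a region near Hdgfl1, with 14.7 in the trunk and 4.11 in the limb, and an intron of Adcy9, with 16.1 and 4.88. These were chosen for the gap in rank, which is therefore not evidence of a tissue difference.

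The thresholds of the rule ran through a continuum. The weakest limb call of a member was chr10:82845467-82845896 near Chst11, with a −log10 q of 1.303, and the weakest trunk call was chr4:119195564-119196100 near Ppih, also at 1.303. Just outside stood chr2:67396320-67396599 near Xirp2, left out because of a trunk EGFP- peak with a −log10 q of 1.302. One member, chr7:136914409-136914873 near Ebf3, touched an EGFP- interval with 0 bp between, and a region near Kcns1, chr2:163991301-163992568, was left out for an overlap of 2 bp. Of the members, 26.4% had an EGFP- interval within 5 kb, and the median distance to one was 12.96 kb.

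In position and base composition the members were close to the distal regions as a whole, and the regions with peaks in all 4 lists stood apart. The members' strongest summit lay in an intron of a protein-coding gene in 48.3% of cases (46.9 to 49.8), in an exon in 5.65% and between protein-coding genes in 46.0%. The intron share was 45.8% over all distal regions and 48.2% where 1 EGFP+ list alone had a peak. Among the regions of all 4 lists the intron share was 39.4% (37.8 to 41.0), and in the EGFP- mirror group it was 43.7% (41.5 to 45.9). The start site of a lncRNA, a long RNA that codes for no protein, had its promoter window over 13.8% of the members (12.9 to 14.9), 15.5% of all distal regions and 40.3% of the regions of all 4 lists (38.7 to 41.8). In the 300 bp windows the mean number of CpG dinucleotides was 4.47 in members, 4.82 in all distal regions, 4.91 in the EGFP- mirror group and 9.17 in the regions of all 4 lists. The median distance to the nearest protein-coding start site was 32.6 kb, against 34.3 kb over all distal regions, and 21.6% of the members were farther than 100 kb from any.

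Nearly 1 in 5 members was nearest to a gene that the study lists as chondrogenic from RNA-seq of the same populations. That list was chosen by the study from EGFP+ against EGFP- cells, so it is not independent of the sort. Its 655 protein-coding genes found in the annotation were nearest to 894 of the 4623 members, 19.3% (18.2 to 20.5). The same share was 9.99% (8.65 to 11.5) where 1 EGFP- list also had a peak, 5.44% (4.74 to 6.21) where all 4 lists had one, and 3.50% (2.74 to 4.41) in the EGFP- mirror group. It was 8.49% over all distal regions. Where 1 EGFP+ list alone had a peak it was 10.7% (10.2 to 11.2), so a share above that of all distal regions was not particular to the members. The interval of the members overlaps none of the other intervals given here, but these intervals cover counting error only. They count regions as independent, although 46.8% of the members stood within 25 kb of another member. No replicate bears on the difference.

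Stronger members were nearest to a chondrogenic gene more often. When the members were ordered by the lower of their limb and trunk −log10 p and divided into 4 parts of nearly equal size, the share was 14.3% in the weakest part, then 17.5%, 20.3% and, in the strongest part, 25.3% (22.9 to 27.96). The strongest part was also wider, with a median of 686 bp against 440 bp. Of the 894 members, 844 were nearest to a gene listed in both tissues, 21 to a gene listed in limbs and 29 to a gene listed in trunk. The limb value had the higher rank in 545 of the 844 (64.6%, 61.2 to 67.8), an interval above the 59.3% of all members. It had the higher rank in 16 of the 21 (52.8 to 91.8%) and in 14 of the 29 (29.4 to 67.5%), and both of these intervals include 59.3%.

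The genes nearest to most members included several regulators of cartilage and 6 genes that are not on the study's chondrogenic list. Sox9, which encodes the master regulator of chondrogenesis, was nearest to 27 members, more than any other gene, followed by Sox5 with 17 of 60 distal regions and Sox6 with 17 of 48. Auts2, a neurodevelopmental regulator, followed with 16 of 66, all in its introns, and Fgfr2, a receptor for fibroblast growth factors, with 15 of 44. Pou3f3 had 14 of 30, Aopep 12 of 57, and Gmds, Foxc1, 1700018B08Rik, Wwp2 and Lrig3 had 11 each. Foxc1 encodes a forkhead factor of the skeletal mesenchyme, and Wwp2 hosts in its introns the cartilage microRNA miR-140. Tns1 with 10 and Fndc3b and Zmiz1 with 9 each completed the 15, ahead by their strongest member among 14 genes with 9. The share of the distal regions of a gene that were members ran from 15.3% at Zmiz1 to 46.7% at Pou3f3. Of these 15 genes, 9 were on the study's chondrogenic list, beside 304 of all 2469 genes nearest to a member.

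Around Sox9 the 27 members spread over 1205 kb of chromosome 11, 21 of them upstream and 6 downstream of the gene, and they were 32.1% of the 84 distal regions assigned to it. All 27 were intergenic. The strongest lay 365.9 kb downstream at chr11:113038941-113039530, where the limb peak had 16.1 and 41 reads and the trunk peak 17.96 and 43 reads. The next, 737.7 kb upstream at chr11:111934534-111935284, had 16.5 and 39 reads in the limb and 15.2 and 34 reads in the trunk. The gene lies in a wide desert of protein-coding genes.

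At 7 cartilage loci the distal regions within 100 kb of a start site were counted, and the shares were highest at the 2 matrix genes. At Acan, which encodes aggrecan, the chief proteoglycan of cartilage, 14 of the 23 distal regions were members (60.9%, 38.5 to 80.3). At Col2a1, which encodes type II collagen, 11 of 20 were (55%, 31.5 to 76.9). Both are above the 10.8% of all distal regions, as are the intervals at Fgfr3 and Sox9 given next. The Col2a1 locus carries the EGFP sensor in all 4 populations. The cells were sorted by the activity of that locus, so its share is not independent of the sort. At Fgfr3, a receptor that restrains growth plate chondrocytes, 6 of 13 were members (19.2 to 74.9%), at Sox9 5 of 12 (15.2 to 72.3%), and at Gdf5, a joint ligand of the BMP family, 4 of 12 (9.92 to 65.1%). At Hhip 0 of 2 and at Nkx3-2 0 of 4 distal regions were members, which allows shares of up to 84.2% and 60.2%.

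**Figure D3:**
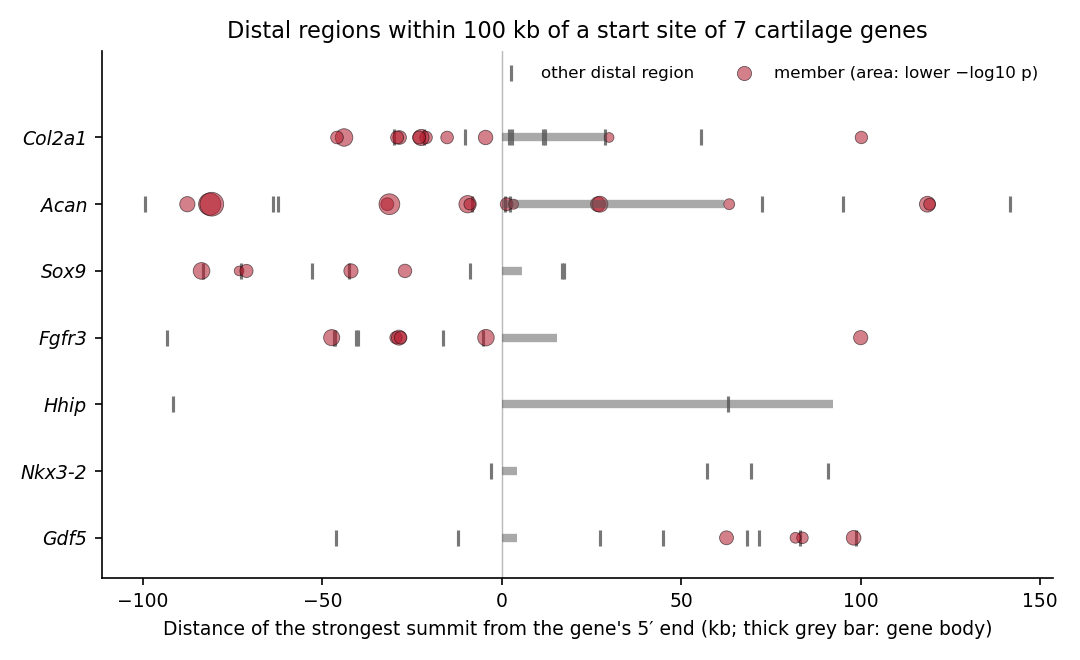
Distal regions within 100 kb of a start site of 7 cartilage genes, by the distance in kb of the strongest summit from the 5′ end of the gene, with members as red circles (area by the lower −log10 p), other distal regions as ticks and the gene body as a thick bar. Members number 14 at Acan and 11 at Col2a1, where 9 lie upstream, and 0 at Hhip and Nkx3-2.

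At Acan the 2 strongest members were neighbours 80.8 and 81.4 kb upstream of the 5′ end. The first is the eighth of all members, described above, and the other, chr7:78620988-78621760, reached 19.2 with 56 reads in the limb list and 19.0 with 57 reads in the trunk list. It holds the facing SOX cores printed above for this locus. The third, 31.3 kb upstream at chr7:78671427-78672094, had 22.1 and 55 reads in the limb and 16.6 and 40 reads in the trunk. Another, 9.55 kb upstream, had 22.5 in the limb and 11.6 in the trunk, and one in an intron of Acan at chr7:78730043-78730748, had 11.7 and 9.79.

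At Col2a1 the strongest was 44.0 kb upstream, in an intron of Senp1 at chr15:97946447-97947219, and it was higher in the trunk, at 18.4 with 48 reads, than in the limb, at 11.8 with 32 reads. The next, 22.5 kb upstream at chr15:97924667-97925404, went the other way, with 21.1 and 98 reads in the limb and 9.92 and 60 reads in the trunk. Members 4.54, 28.5 and 23.1 kb upstream had lower values, between 6.59 and 10.2 in both lists. None of the 11 members at Col2a1 held the facing cores at the spacing of 6 bases.

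Near Sox9 the strongest of the 5 members within 100 kb was 83.7 kb upstream at chr11:112588135-112589478, at 10.7 with 27 reads in the limb and 12.4 with 29 reads in the trunk. The weakest of the 5, at chr11:112599674-112600021, had 7.11 in the limb and 3.59 in the trunk, and it is the one that held the facing cores. At Fgfr3 the strongest was 4.44 kb upstream of the gene, at 10.5 with 34 reads in the limb and 13.5 with 36 reads in the trunk. A second, chr5:33850108-33850604, was 27.4 with 95 reads in the limb but 8.71 with 53 reads in the trunk. The 4 members near Gdf5 all lay downstream, between 62.6 and 98.0 kb from its 5′ end and within Uqcc1. The strongest had 12.3 in the limb and 8.26 in the trunk, and its 1000 bp window held the facing cores. No member within 100 kb of Fgfr3 held them.

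Gene lists were then read by role, and the lists of cartilage matrix hold Col2a1 and Acan, so they are not independent of the loci above. Of the 21562 protein-coding genes on these chromosomes, 26.9% had a member within 100 kb. Such a member can be nearest to another gene. No member was nearest to Matn4, Slc26a2, Foxc2, Col1a1, Sox10 or Tnnt3, among others counted below. All 15 genes of proteoglycans and other cartilage matrix had one, as did 7 of the 8 cartilage collagens. The exception was Col10a1, the collagen of hypertrophic cartilage. Some of the 15 share members. The only member of Epyc and of Dcn is 1 region nearest to Lum, 76.2 and 84.7 kb away, and Fmod and Prelp share their strongest. Dcn also stands in the tendon and connective tissue list, and the study names it as a connective tissue marker of EGFP- cells. Members were 32.6% (23.0 to 43.3) of the 89 distal regions near the collagens and 28.4% (21.6 to 36) of the 162 near the other matrix genes. Regions of the EGFP- mirror group were 4.49% and 2.47% of the same regions.

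Among the collagens, Col27a1, which encodes a fibrillar collagen of the growth plate, had 9 members, and the strongest, 27.6 kb upstream at chr4:63105017-63106099, reached 26.3 in the limb list and 14.9 in the trunk list. Col9a3 had 3 and Col9a2 and Col11a1 2 each, and the strongest at Col11a1 had 25.1 in the limb and 13.3 in the trunk. After Acan, the matrix genes with most were Matn1 with 6, Matn4 with 5 and Cnmd with 4. Matn1 and Matn4 encode matrilins, which link matrix fibres, and Cnmd encodes chondromodulin, an inhibitor of vessel growth. The strongest member at Cnmd, 40.6 kb upstream at chr14:79940205-79941315, had 17.2 with 57 reads in the limb and 15.4 with 53 reads in the trunk.

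Genes for the sulfated side chains of proteoglycans followed. Members were 24.4% (17.2 to 32.8) of the 127 distal regions near the 17 genes of chondroitin sulfate synthesis and sulfate supply, and 10 of the 17 genes had one. Chst11, a chondroitin sulfotransferase, and Slc26a2, the sulfate transporter of chondrocytes, had 5 each. Chsy1, which builds the chondroitin chain, and Papss2, which makes the sulfate donor, had 4 each. The strongest at Chst11 was 81.1 kb upstream, with 19.2 in the limb and 10.1 in the trunk, and that at Slc26a2 had 10.1 and 10.6.

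The transcription factors and the signalling genes of the growth plate stood lowest of the 5 cartilage lists, with intervals above the 10.8% of all distal regions. Members were 17.6% of the regions near each list (13.5 to 22.2 for the factors, 13.4 to 22.5 for the signals), and 17 of 27 factors and 20 of 32 signalling genes had one. Sox6 and Foxc2 had 6 each, and Foxc2 is a forkhead factor of the axial skeleton. The strongest member near Foxc2, chr8:121929901-121930805, had 26.1 with 59 reads in the limb and 18.2 with 58 reads in the trunk. It lies 87.0 kb from Foxc2 and is nearest to Foxl1, which the study lists as chondrogenic in trunk. Sox8 and Foxc1 were among those with 5 each, with strongest values of 19.2 and 19.5 in the limb and 12.7 and 12.1 in the trunk. Fgfr2 had 8 within 100 kb, after it Fgfr3 with 6, and Ihh, the hedgehog ligand of the growth plate, had 4, of which the strongest, 13.1 kb upstream, had 25.9 in the limb and 17.2 in the trunk. Bmp7 also had 4.

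For the 6 lists of other lineages the intervals included the 10.8% of all distal regions. Members were 9.47% (4.42 to 17.2) of the distal regions near the genes of hypertrophy and osteoblasts, 11.8% (6.05 to 20.2) near those of skeletal muscle, 5.95% (1.96 to 13.3) near those of tendon and connective tissue, and 4% (0.488 to 13.7) near those of epithelium. In the first of these lists Col1a1, Spp1 and Alpl had 2 each, and in the tendon list Egr1 had 2, Scx and Col14a1 had 1 each, and Dcn, Lum and Kera shared 1. In the epithelium list Cdh1 and Epcam had 1 each. Counted by genes, 50% of the hypertrophy and osteoblast list and 50% of the tendon list had a member within 100 kb. The share was 38.5% of the neuron and neural crest genes, 26.7% of the muscle and of the endothelium and blood genes, and 18.2% of the epithelium genes. Over all protein-coding genes it was 26.9%, so a gene share above that was not particular to the cartilage lists.

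Near the endothelium and blood genes the share was 16.1% (9.32 to 25.2), and 9 of the 15 members there were around Erg. Erg is a factor of endothelium that is also made in joint cartilage, and the study lists it as chondrogenic in both tissues. Its strongest, in an intron at chr16:95199303-95199907, had 28.1 with 49 reads in the limb and 15.6 with 37 reads in the trunk, and Fli1, a close relative of Erg, had 3. Klf1 had 2, the endothelial receptor gene Tie1 had 1, and the remaining genes of the list, among them Kdr, Cdh5 and Pecam1, had none. Near the neuron and neural crest genes the share was 18% (8.58 to 31.4), with 4 of the 9 members around Sox10, and Pax6 and Neurog1 were among the genes with 1. Of the 11 members near muscle genes, Tnnt3 had 4, Chrna1 3, and Acta1 and Des 2 each, and the remaining genes, among them Myod1, Myf5 and Myog, had none. Of all protein-coding genes, 15.7% had a region of the EGFP- mirror group within 100 kb, and the share in the lists ran from 7.69% of the neuron and neural crest genes to 37.5% of the cartilage collagens. For the study's own 3 chondrogenic lists, which are not independent of the sort, members were between 14.9% and 21.5% of the distal regions within 100 kb.

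**Figure D4:**
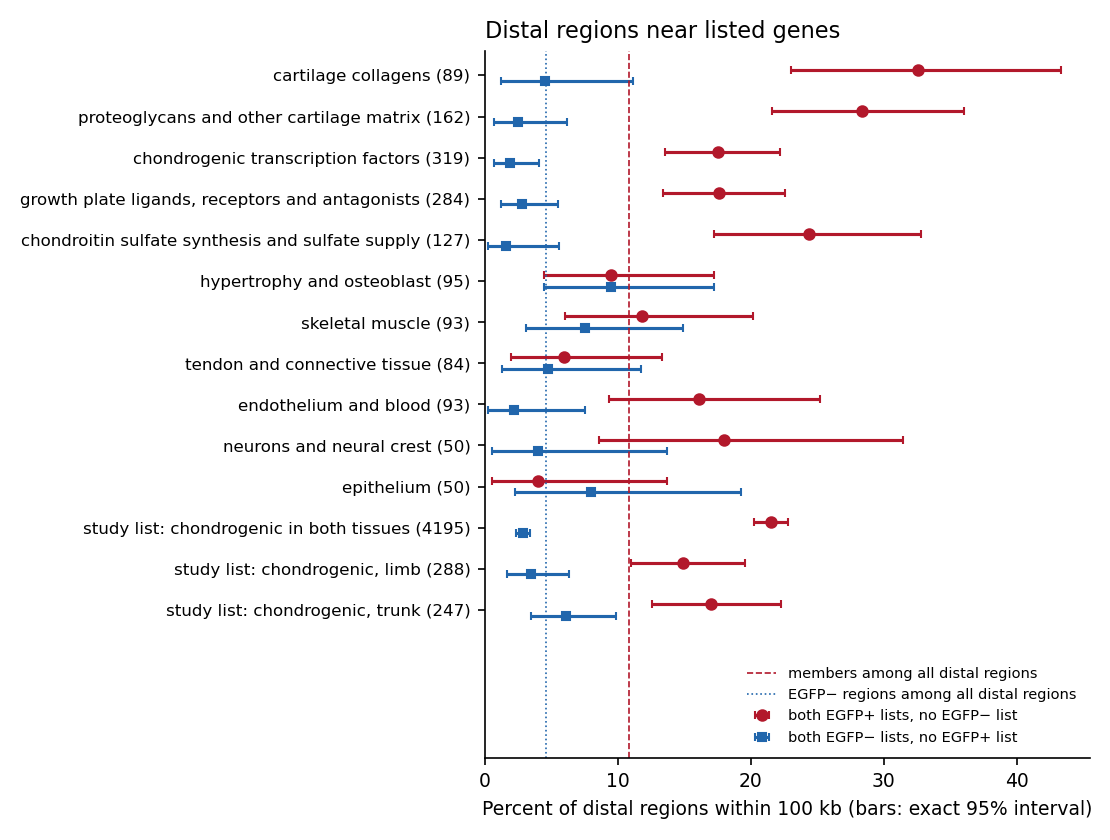
Percent of the distal regions within 100 kb of the genes of each list (number of regions in parentheses) that are members (red circles) or belong to the EGFP- mirror group (blue squares), with exact 95% intervals and dashed and dotted lines at the shares among all distal regions. The 5 cartilage lists lie between 17.6% and 32.6% for the members, to the right of the dashed line at 10.8%.

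Facing SOX cores were compared in more detail. A search that asked for the longer letters AACAAT facing ATTGTT with 3 to 5 bases between found 2 of 4623 members in the 300 bp windows, one near Ercc6l2 and one in an intron of Myo10, too few to compare. The shorter cores printed above were then searched, after these data had been seen, at each spacing from 0 to 12 bases in 1000 bp windows. At 6 bases, 110 members (2.38%, 1.96 to 2.86%) held a pair, beside 1.397% of all distal regions. At the other 12 spacings the members' share ran from 0.260% to 0.973%, with a median of 0.519%. In 300 bp windows the members' share was 0.562% (0.368 to 0.823) at 6 bases and 0.368% (0.214 to 0.588) at 5, and these intervals overlap. At 6 bases it was 0.456% where 1 EGFP+ list alone had a peak, 0.352% over all distal regions and 0.0508% in the EGFP- mirror group.

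The same spacing was less frequent in the regions with EGFP- peaks. It was found in 0.559% of the EGFP- mirror group (0.279 to 0.997%), inside the range of 0.152% to 0.914% of that group's other spacings, and in 0.819% of the regions of all 4 lists (0.557 to 1.16%), where it was also the most frequent spacing, above the 0.317% to 0.687% of the others. Regions with a peak in 1 EGFP+ list alone held it in 1.84%, so it was not particular to the members. Pairs with 1 core of each spelling were in 1.06% of the members (0.785 to 1.399) and in 0.102% of the mirror group (0.0123 to 0.366), and pairs of the same spelling in 1.34% (1.03 to 1.72) and 0.457% (0.209 to 0.866). The 111 pairs found in members had 104 distinct sequences of 16 bases.

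**Figure D5:**
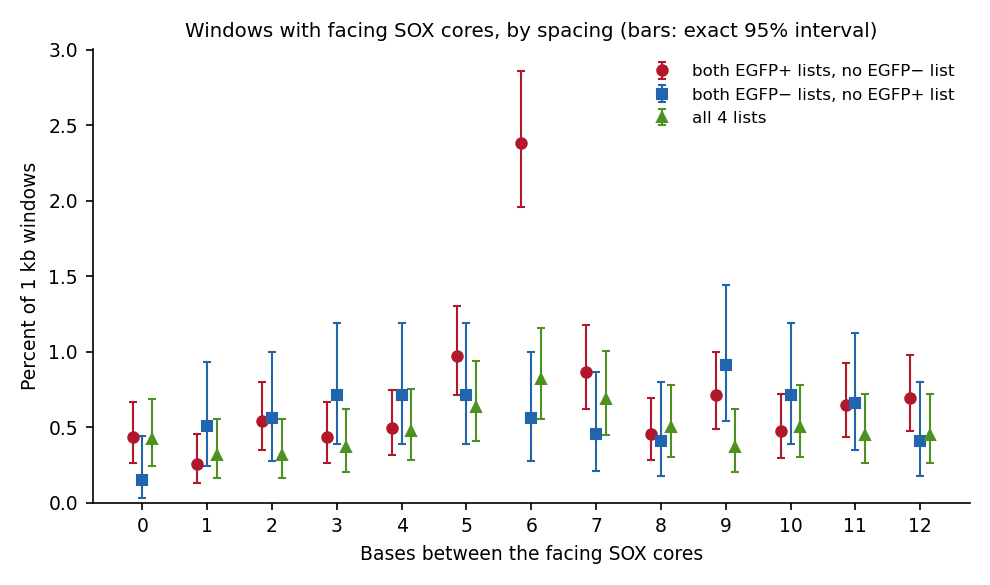
Percent of the 1000 bp windows (vertical axis) that hold facing SOX cores with the given number of bases between (horizontal axis), for the members (red), the EGFP- mirror group (blue) and the regions of all 4 lists (green), with exact 95% intervals. The members reach 2.38% at 6 bases and stay at or below 0.973% at every other spacing.

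The pairs were scattered over the 1000 bp windows, with 7 to 15 of them in each 100 bp step, and 53 of the 110 members held the pair inside their own interval. The lowest counts, 8, 8 and 7, were in the steps from -200 to 100 bp around the summit, which the 300 bp windows overlap. This dip was not tested. The share rose from 1.90% in the weakest of the 4 parts of the members to 3.11% (2.19 to 4.29) in the strongest, with intervals that overlap. It was 1.90% (1.11 to 3.03) for members nearest to a chondrogenic gene and 2.49% (2.02 to 3.05) for the others, so the pair did not mark out the members beside listed genes.

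Among the other letters searched in the 300 bp windows, on both strands, CAGCTG, the E-box of muscle factors such as MyoD, was found in 18.6% of the members against 25.1% of the mirror group and 20.3% of all distal regions. CCGGAA, bound by ETS factors and holding a CpG, was in 4.13% of the members and 10.8% of the regions of all 4 lists, beside 5.06% of all distal regions. The NFAT core TGGAAA was in 29.6%, the TEAD core CATTCC in 17.2% and the AP-1 site TGANTCA in 8.41% of the members, against 29.1%, 18.1% and 8.44% of all distal regions. The RUNX site TGTGGTT, the FOX site TGTTTAC and the homeobox site TAATTA were in 6.23%, 4.46% and 4.76%, beside 6.62%, 4.32% and 5.48% of all distal regions. MEF2 sites were in 3.03% and 3.13%. The full NFI site was in 1 member (0.0216%), beside 0.254% of the mirror group and 0.0703% of all distal regions. These matches are letters in the genome, and binding was not measured in these libraries.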

How the data were processed

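H3K27ac ChIP-seq peak lists of the 4 sorted populations were used, 1 library each. Per the methods of the study, the authors drew an equal number of reads per library, trimmed them with cutadapt 1.18, aligned them to GRCm39 with Bowtie2 2.3.5.1, filtered them with SAMtools and called peaks and summits with MACS2 2.2.7.1, extending reads to 200 bp. No input control is named in the sources used here. The deposited peak lists hold, for each summit, a score, a fold of reads over local background, a −log10 p and a −log10 q. The score was not used for any value in the text.

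Rows of summits that shared 1 interval were joined, intervals of the 4 lists that overlap were merged on chromosomes 1 to 19, X and Y, and the members were chosen by peak presence and absence. The strongest summit of an interval gave its −log10 p and fold. Reads and background at a summit were solved from the fold and the −log10 p, within a tolerance of 0.01, for 100% of the summits. Start sites, exons and introns were taken from the GENCODE M39 annotation of GRCm39, with promoter windows of 2 kb upstream and 500 bp downstream. A region was assigned to the protein-coding gene with the nearest start site and, for gene lists, to all listed genes with a start site within 100 kb. Sequence was read from GRCm39, in windows of 300 or 1000 bp around the stronger summit, and motifs were searched on both strands. Scripts used Python 3.11.15, pandas 2.3.3, scipy 1.17.1 and pysam 0.24.0, and the joining, recovery and motif search were tested on simulated data.

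The names of the peaks place both limb libraries on one sequencing lane and both trunk libraries on another. Those of the trunk EGFP- list carry a second replicate mark although the label says replicate 1, and the label was used. Read length and sonicator differ between descriptions and could not be assigned to libraries. These points, and the equal number of reads, bear on comparisons between limb and trunk. The replicate mark, the read length and the sonicator also bear on those between EGFP+ and EGFP- cells, by which the members were chosen.

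The members and the gene lists were chosen with earlier results of these data known. The named regions and genes are the 10 members of the highest lower −log10 p, the 15 genes nearest to most members, up to 4 genes per list, up to 5 members at each of 7 loci, 5 members per direction with the widest gap in rank, and those next to each threshold. Sequences of chromosome 18 were not printed. Markers with no member were named beside their list after their values were seen. Alternatives changed the q or fold filter, list length, overlap, distance to EGFP- peaks, promoter window, merging, chromosomes, sequence window and gene assignment. Some genes of the neuron and neural crest list are not reported here.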

Additional observations from a re-analysis of the deposited data

How the results depend on the processing

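The number of members, 4623, depended most on the strength asked of a peak. Asking for a −log10 q of 5 or more in all 4 lists left 2152, 1423 were left with that limit on the EGFP+ lists only, 1135 with the 20000 strongest intervals per list and 950 with a fold of at least 4 in the EGFP+ lists. Under the other alternatives it ran from 3401 to 5804. The percent nearest to a chondrogenic gene, 19.3%, was 21.3%, 24.5% and 23.6% under the first 3 of these, 21.4% with no EGFP- interval within 5 kb and 20.8% when a start within 100 kb was asked in place of the nearest. Without the trunk EGFP- list it was 18.1% and without the limb EGFP- list 17.5%, both added after the data had been examined. The percent in introns, 48.3%, was 46.1%, 46.7% and 44.9% under the same first 3 limits and 46.3% with promoter windows of 5 kb. Of 99 genes of the 5 cartilage lists, 69 had a member within 100 kb, and this became 42 with the limit on the EGFP+ lists only and 34 with 20000 intervals per list. The pair AACAAT facing ATTGTT, in 0.0433% of the members, was in 0 under the first 3 limits and with the trunk summit as the centre. The facing cores 6 bases apart, in 2.38% in windows of 1000 bp, were in 2.95% with the limit on the EGFP+ lists only and in 0.562% in windows of 300 bp, alternatives also added after the data had been examined. Shorter windows hold fewer pairs by construction, and the cause of the other changes was not tested.

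No paired analysis was possible because each population has 1 library, and leaving out a replicate was not possible for the same reason. Depth limits the EGFP- side, since an EGFP- peak too weak to be called counts as absent. The values of limb and trunk cannot be told apart from those of their sequencing lanes.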

Other observations

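Groups of neighbouring members were counted by distance. With gaps of at most 25 kb, 2162 members (46.8%) fell into 852 groups and 2461 stood alone, and 45 groups held 5 or more. By the same rule 40.5% of the 3785 regions of all 4 lists and 80.9% of all 42651 distal regions fell into groups, shares that also depend on how many regions each set holds, and the median gap from one member to the next was 106 kb. The group with most members, 11 of 25 distal regions, spanned 91.7 kb at Wwp2. A group of 10 among 16 distal regions lay beside Ccdc92 and Rflna, one of 9 among 14 beside Snx18, and one of 8 among 9 at Col27a1 and Kif12. At Gmds all 7 distal regions of a 42.8 kb stretch were members.

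On the X chromosome 79 of 701 distal regions (11.3%) were members, within the range of the autosomes, from 8.27% on chromosome 19 to 11.9% on chromosome 7. On the Y chromosome 0 of 11 were.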
